A study of Danio rerio with 8 samples.

Results

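The alpha-2-macroglobulin paralogs of zebrafish were followed in whole ovary across 4 dietary doses of TCDD (2,3,7,8-tetrachlorodibenzo-p-dioxin, a ligand of the aryl hydrocarbon receptor). The members were 6 genes (a2m2e, a2m2h, a2m3a, a2m3b, a2m3d and a2m3g) of 8793 that have a probe set annotated with their symbol alone, and they were read by 9 of the 15502 non-control probe sets. The 6 genes had been selected from the values themselves, by their signal in control ovary and by how that signal stood at 10 ppb, so levels in the control pool and every difference that involves the 10 ppb pool are given as description, with no test.

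The fish were adult females of the AB strain aged 6 to 8 months, fed trout chow for 15 days that carried the solvent acetone alone (0 ppb) or tritium-labelled TCDD at 10, 40 or 100 ppb (ng per g), and spawned weekly. RNA from 5 ovaries, 3 µg each, made up a single pool per dose, and every pool was hybridised to 2 Affymetrix arrays, named replicate 1 and replicate 2. The 8 arrays are thus technical replicates of 4 pools: SEs and p-values cover the spread between arrays of a pool and say nothing about variation between fish. In tissue pools of this kind, a change in the number of cells of a type and a change in RNA per cell cannot be told apart.

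Arrays were placed on a common scale by quantile normalization of log2(intensity + 16), and all levels and differences below are on that scale unless an intensity is named. Differences of dim probe sets are understated by it. An intensity was counted as above background when it was higher than 95% of the 17 tag controls, whose targets are not zebrafish sequences. That limit varied from 5.92 to 20.54 between arrays and was exceeded by 63.6% to 79.5% of probe sets. Per the instrument file headers, hybridisation took place on separate days: day 1 held only replicate 1 of the 10 ppb pool, day 2 held replicate 1 of the others, and day 3 held every replicate 2. The arrays of the 10 ppb pool were the least alike, with 190 of 9301 tested probe sets at least 2-fold apart against 9 to 20 in the other pools. For gapdh, the 3′ control probe set divided by the 5′ one gave 1.38 and 1.34 on the control arrays, 1.22 and 1.52 on those of 10 ppb, 1.23 and 1.16 on those of 40 ppb, and 0.949 and 1.06 on those of 100 ppb. Of 12 gonadal and oocyte markers on the array, 10 were above background on both control arrays, among them the egg envelope gene zp3b and the maternal factor gene zar1, while fshr and amh were below it on both.

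Alpha-2-macroglobulins are large secreted inhibitors that catch proteases of nearly every class. A protease that cuts the exposed bait region triggers a change of shape which encloses it, and the complex is then cleared through receptors of the LRP1 type. The family is related to complement proteins C3, C4 and C5 through a shared thioester fold. In mammals the liver is the main source of the plasma protein, and in the rat the gene is also expressed in the corpus luteum and is a strong acute-phase gene.

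A current gene table (RefSeq, assembly GRCz12tu), used only for names and for gene order, held 13 genes with an a2m symbol, and the identifiers of all 6 member genes matched it under the same symbols. The 7 a2m2 genes lie together on 1 chromosome and the 6 a2m3 genes on another. In the a2m3 group a2m3f, a2m3g, a2m3h, a2m3d and a2m3a follow each other with no other gene between them, and a2m3b is set apart by 39 protein-coding genes. In the a2m2 group a2m2c, a2m2e and a2m2d are direct neighbours, with a2m2h beyond 2 further protein-coding genes.

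The array carried 15 probe sets with an a2m symbol. Of the 9 that read the members, a2m2e, a2m2h and a2m3b had 1 each, and a2m3a, a2m3d and a2m3g had 2 each. The a2m3d probe sets are called a2m3d (1) and a2m3d (2). The a2m3a and a2m3g pairs each include a probe set with the suffix _x_at, which marks probes that also match other sequences. Of the other 6 probe sets, a2m2c and a2m2f had 1 each, and 4 were annotated with several paralogs. Closely related paralogs may share signal, so that the level of any single a2m gene is uncertain, and a brighter probe set does not show a more abundant transcript. No probe or gene sequence was used here.

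a2m3a, a2m3b and a2m3g gave strong signals on all 8 arrays. The a2m3b probe set read 11.72 and 11.99 on the control arrays, 11.81 and 12.01 on those of 10 ppb, 11.97 on both of 40 ppb, and 11.85 and 12.00 on those of 100 ppb. Its 4 pools overlapped, within a total range of 0.29. The plain probe set of a2m3a read 11.54 and 11.75 on the control arrays, 11.22 and 11.58 on those of 10 ppb, 11.60 and 11.65 on those of 40 ppb, and 11.28 and 11.25 on those of 100 ppb. Both arrays at 100 ppb lay under both control arrays and both 40 ppb arrays. The _x_at probe set of a2m3a read 11.73 and 11.86 on the control arrays, 11.24 and 11.73 on those of 10 ppb, 11.68 and 11.75 on those of 40 ppb, and 11.30 and 11.44 on those of 100 ppb, with the same order of the 100 ppb arrays against the 0 and 40 ppb arrays. In both a2m3a probe sets the 100 ppb arrays lay between replicate 1 and replicate 2 of the 10 ppb pool.

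For a2m3g the plain probe set read 10.84 and 11.03 on the control arrays, 10.61 and 10.80 on those of 10 ppb, 10.93 and 10.99 on those of 40 ppb, and 10.99 and 10.94 on those of 100 ppb. The 10 ppb pool was lowest, by 0.23 against the control pool, and its brighter array was just under the dimmer control array. The _x_at probe set of a2m3g read 11.64 and 11.53 on the control arrays, 11.37 and 11.68 on those of 10 ppb, 11.74 and 11.70 on those of 40 ppb, and 11.71 and 11.68 on those of 100 ppb. The 10 and 0 ppb means differed by -0.06, with overlapping arrays. A probe set shared by a2m3g, a2m3f and a2m3h stayed within 0.23 over all 8 arrays.

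**Figure D1:**
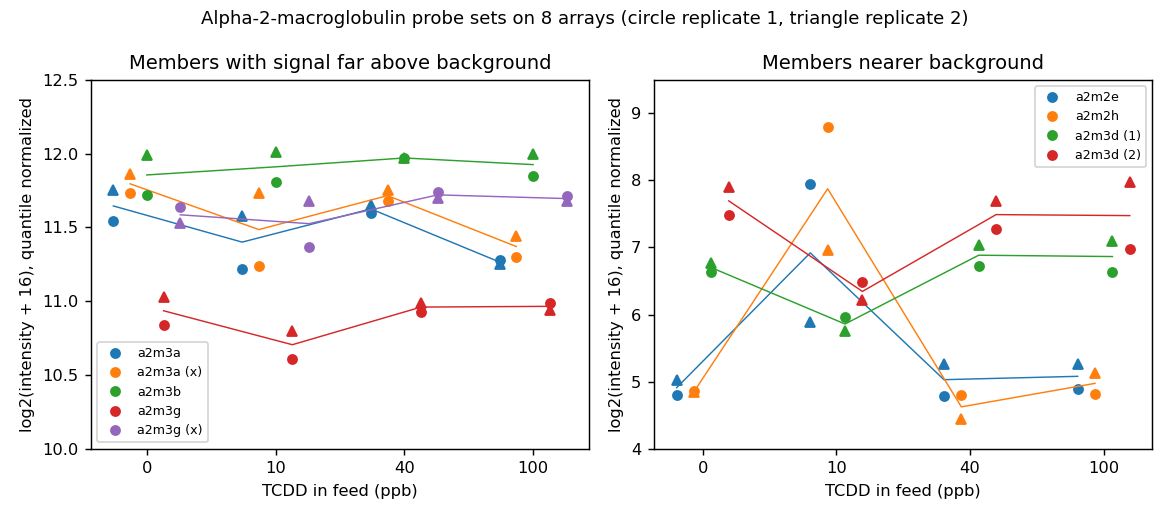
Level of the 9 member probe sets by dose of TCDD in feed, as log2(intensity + 16) after quantile normalization; circles are replicate 1, triangles replicate 2, and lines join the means of the 2 arrays. a2m3a, a2m3b and a2m3g (left) stay between 10.61 and 12.01, while a2m2e and a2m2h (right) are high at 10 ppb alone and both a2m3d probe sets are lowest there; (x) marks the _x_at probe sets.

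a2m3d, which sits next to a2m3a in the gene order, was the member that was lower by at least 1 at 10 ppb, in 1 of its 2 probe sets. Its probe set a2m3d (2) read 7.49 and 7.90 on the control arrays, 6.48 and 6.21 on those of 10 ppb, 7.28 and 7.70 on those of 40 ppb, and 6.97 and 7.98 on those of 100 ppb. Both 10 ppb arrays were under each of the 6 other arrays, which overlapped among themselves. The other, a2m3d (1), read 6.63 and 6.77 on the control arrays, 5.97 and 5.75 on those of 10 ppb, 6.73 and 7.04 on those of 40 ppb, and 6.63 and 7.10 on those of 100 ppb, and again both 10 ppb arrays were lowest. The deposited intensities of a2m3d (2) were 258.3 and 157.5 in the control pool against 66.5 and 40.3 at 10 ppb.

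At 10 minus 0 ppb a2m3d (2) differed by -1.35 (2.55-fold lower) and a2m3d (1) by -0.84 (1.79-fold lower), and the arrays of the shared day by -1.70 and -1.02. All 8 arrays were above background for both. The arrays of the 10 ppb pool differed by only 0.27 and 0.23 in these probe sets. Against 10 ppb, a2m3d (2) was higher by 1.15 at 40 ppb and by 1.13 at 100 ppb. a2m3d (1) was higher by 1.02 and 1.01.

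a2m2e and a2m2h, both a2m2 members, were near background in every pool but that of 10 ppb. a2m2h had deposited intensities of 17.9 and 9.4 on the control arrays, 413.8 and 76.3 on those of 10 ppb, 16.7 and 4.8 on those of 40 ppb, and 17.0 and 14.4 on those of 100 ppb. On the normalized scale it read 4.86 and 4.84, 8.79 and 6.96, 4.80 and 4.45, and 4.82 and 5.13 in that order of doses. The 10 ppb arrays stood clear of all others, and replicate 1 was far higher than replicate 2. a2m2e read 4.80 and 5.02 on the control arrays, 7.95 and 5.89 on those of 10 ppb, 4.79 and 5.27 on those of 40 ppb, and 4.89 and 5.27 on those of 100 ppb, with the same order of the 10 ppb arrays.

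The 10 minus 0 ppb difference was 3.02 (8.13-fold) for a2m2h and 2.01 (4.02-fold) for a2m2e. With replicate 1 alone it was 3.94 and 3.04, and with replicate 2 alone 2.11 and 0.98. Within the shared day, replicate 2 differed by 2.12 for a2m2h and by 0.87 for a2m2e. Size therefore depended on the array, and a2m2e was beyond 1 through replicate 1. On both control arrays a2m2h and a2m2e were above the tag control limit, by little on replicate 2. At 40 ppb a2m2h was below it on both arrays and a2m2e on replicate 1. Intensities on replicate 1 were alike at 0 and 40 ppb, 17.9 and 16.7 for a2m2h and 16.1 and 16.3 for a2m2e. The limit on those arrays was 7.1 and 20.54. Against 10 ppb, a2m2e differed by -1.89 (40 minus 10 ppb) and -1.84 (100 minus 10 ppb), and the arrays of the shared day by -0.62 in both. For a2m2h the 40 ppb level was lower than that of 10 ppb by at least 8.25-fold, a bound that was 4.38-fold from 10 ppb replicate 2 alone.

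Read over all 9 members, 2 were higher and 1 was lower by at least 1 at 10 ppb. Among all 9301 tested probe sets the shares with such a difference were 0.989% higher and 0.495% lower, and since this contrast chose the members nothing is read from their count. All 9 members passed the filter on dim probe sets (mean above the 40th percentile, 5.11). a2m2e and a2m2h did so through the 10 ppb arrays: over the 6 other arrays their means were 5.01 and 4.82, and with the percentile taken over those arrays 7 of 9 passed.

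The remaining a2m2 probe sets showed the same order of arrays at 10 ppb. A probe set annotated with 7 a2m2 symbols (a2m2a to a2m2f and a2m2h) read 5.15 and 5.46 on the control arrays, 9.72 and 7.62 on those of 10 ppb, 5.53 and 5.46 on those of 40 ppb, and 6.07 and 6.03 on those of 100 ppb. One annotated with 5 of these symbols read 5.84 and 6.26, 9.12 and 7.26, 6.67 and 6.43, and 6.78 and 6.91. In both, the 10 ppb arrays were the brightest and the 100 ppb arrays lay above the control arrays. a2m2f, a2m2c and a probe set shared by a2m2e and a2m2d were dimmer and fell under the filter; a2m2f was below background on both control arrays and at least 2.20-fold higher at 10 ppb, a bound that was 1.42-fold from replicate 2 alone. In all 7 a2m2 probe sets both 10 ppb arrays were above both control arrays, and replicate 1 was above replicate 2. This contrast chose the members among the 7, and the shared a2m2 probe sets carry member symbols too. The share of all probe sets in that order is not given here, so nothing is read from the count.

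**Figure D2:**
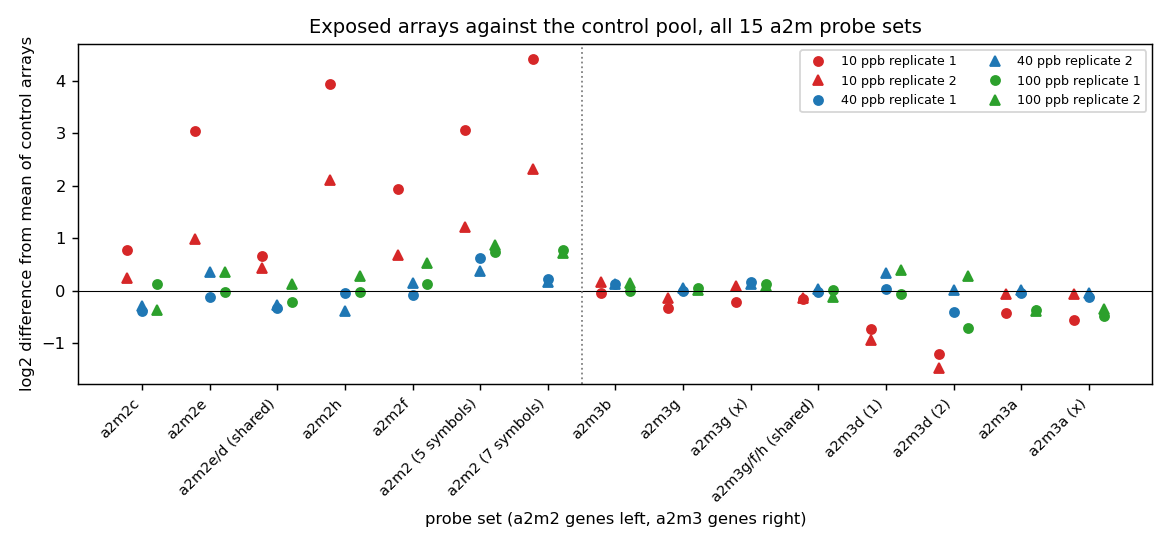
Difference of each exposed array from the mean of the control arrays, in log2 units, for all 15 probe sets with an a2m symbol, a2m2 genes on the left and a2m3 genes on the right of the dotted line; colours give the dose, circles replicate 1 and triangles replicate 2. At 10 ppb all 7 a2m2 probe sets lie above 0 with replicate 1 higher than replicate 2 and reaching 4.41 above the control mean, and both a2m3d probe sets lie below 0 on both arrays.

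Most listed liver markers on the array were higher on the 10 ppb arrays, where the a2m2 probe sets were higher too. Of 34 listed liver markers 28 were on the array, and the median difference was 2.35. In 23 both 10 ppb arrays were above both control arrays. The share of all probe sets in that order is not given here, and 0.989% of the 9301 tested were higher by at least 1. The list was chosen with earlier results of these data known. The summed level of the 28 markers, on a linear scale after normalization, was 2880 and 3333 on the control arrays, 21920 and 6260 on those of 10 ppb, 1526 and 2115 on those of 40 ppb, and 2120 and 2372 on those of 100 ppb. No listed marker was below background on all arrays. Replicate 1 exceeded replicate 2 at 10 ppb in 27 of the 28, and the median gap was 1.96. The exception was the yolk precursor gene vtg2, which read 10.75 and 11.04 on the control arrays, then 7.04 and 8.83 on those of 10 ppb. That gap was 2.06 for a2m2e and 1.83 for a2m2h. The 10 ppb arrays had a part in the choice of both genes, so nothing is read from the likeness to the liver markers.

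The liver markers were not uniform. The liver fatty acid binding gene fabp10a read 6.62 and 6.88 on the control arrays, then 7.65 and 6.49 on those of 10 ppb, so that its arrays overlapped. The arrays of rbp4, hp and cyp2ad2 overlapped too. On 10 ppb replicate 2 rbp4 read 6.22, against 7.34 and 7.56 on the control arrays, and hp read 6.35, against 6.65 and 6.56. The a2m3 members did not share the gap between the 10 ppb arrays, with replicate 1 minus replicate 2 between -0.48 and 0.27. The gonadal and oocyte markers had a median gap of -0.04 and summed to 11530 and 12210 at 0 ppb and to 12500 and 12980 at 10 ppb. Of these 12 markers, 4 were higher on both 10 ppb arrays than on both control arrays, and 1 was lower. In the pancreas list 3 of 5 markers were higher on both 10 ppb arrays, summing to 534.7 and 200.8 against 175.8 and 139.7 in the control arrays, and insulin (ins) was above background on 1 of the 8 arrays, a control array. In the blood and leukocyte list 2 of 7 markers on the array were higher at 10 ppb and 2 lower, and of 4 intestine markers fabp1b.1 was below background on all 8 arrays, fabp2 and vil1 were above it on 2 and 1 arrays, and apoa4a, above it on all 8, overlapped between the pools. The share of all probe sets whose 10 ppb arrays lay above or below both control arrays is not given here. Nothing is therefore read from the counts of these lists. The part of any of these cell types in the a2m2 or a2m3d levels was not tested.

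**Figure D3:**
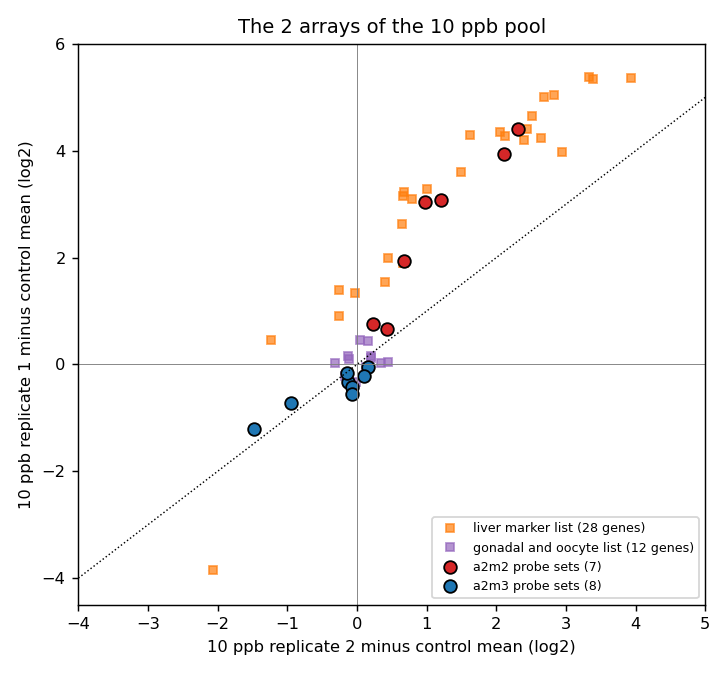
Replicate 1 against replicate 2 of the 10 ppb pool, each as the log2 difference from the control mean, for a2m2 and a2m3 probe sets (circles) and for 28 liver and 12 gonadal and oocyte markers (squares); the dotted line marks equal values. The a2m2 probe sets and most liver markers lie above the line, and a2m3 probe sets and gonadal markers lie on or near it.

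The members were then compared between the doses other than 10 ppb. No member was called at 40 minus 0, 100 minus 0 or 100 minus 40 ppb (limma, adjusted p under 0.05 and a difference of at least 1), where 0.344%, 1.25% and 0.43% of the 9301 tested probe sets were called. Unadjusted p was under 0.05 for both a2m3a probe sets at 100 minus 0 and 100 minus 40 ppb and for no other member, against 2154 and 1097 of all tested probe sets there and 1084 at 40 minus 0 ppb. The first 2 comparisons share the control pool, whose level had a part in the choice of genes, so their member values are a description. Only 100 minus 40 ppb shares no array with that choice. The SE pools the spread of all 4 pools, so that it is wide where the 10 ppb arrays lay apart, as in the a2m2 genes, and 7 of the 9 members passed the filter without those arrays.

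The a2m3a probe sets were nearest to a difference. At 100 minus 40 ppb they differed by -0.36 ± 0.12 (SE; 95% interval -0.63 to -0.10, adjusted p = 0.258) and, for the _x_at probe set, by -0.35 ± 0.14 (-0.65 to -0.04, adjusted p = 0.351), with both arrays lower on both days. At 100 minus 0 ppb the differences were -0.38 ± 0.12 (adjusted p = 0.0954) and -0.43 ± 0.14 (adjusted p = 0.099) in limma's fit. The control level had a part in the choice of genes, so values at 100 minus 0 ppb are a description in every fit. At 100 minus 40 ppb the adjusted p of limma was 0.0226 and 0.0419 with only the arrays compared, and 0.0236 and 0.0143 with day as a block. Both fits leave out or absorb spread of the 10 ppb arrays, as day 1 held only 1 array of that pool. The adjusted p of limma was 0.165 and 0.192 with replicate as a block, and 0.252 and 0.34 with a pseudocount of 1. With trimmed mean scaling it was 0.46 and 0.509. The size stayed under 1 in all of these fits. With arrays scaled to a common trimmed mean the 100 minus 0 ppb differences were -0.22 and -0.23.

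a2m3b and a2m3g had the narrowest intervals. At 100 minus 40 ppb a2m3b differed by -0.04 (95% interval -0.28 to 0.20), and a2m3g by 0.01 (-0.22 to 0.23) and, for the _x_at probe set, by -0.02 (-0.26 to 0.21). Against the control pool a2m3b differed by 0.11 at 40 ppb and 0.07 at 100 ppb, the plain probe set of a2m3g by 0.02 and 0.03, and its _x_at probe set by 0.13 and 0.11. None of these intervals, which cover the spread between arrays, reached a 2-fold change.

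a2m3d at 100 minus 40 ppb differed by -0.02 ± 0.19 in probe set (1) and by -0.02 ± 0.29 in probe set (2). Against the control pool the differences of (1) and (2) were 0.18 and -0.20 at 40 ppb and 0.16 and -0.22 at 100 ppb, with the probe sets opposite in sign and all adjusted p of limma at 0.646 or above. The arrays at 100 ppb were 1.01 apart in a2m3d (2), and without replicate 2 of that pool the 100 minus 0 ppb difference was -0.72, against 0.29 without replicate 1.

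a2m2e and a2m2h entered this test only through their 10 ppb arrays, and the SE of both came largely from the gap between those arrays, so their limma values are given as a description. At 40 and 100 ppb a2m2e differed from the control pool by 0.12 ± 0.50 and 0.17 ± 0.50. With only the arrays of the compared pools in the fit the SE was 0.19 in both comparisons, and the 95% intervals were -0.32 to 0.55 and -0.25 to 0.58. a2m2h differed by 0.12 ± 0.44 at 100 minus 0 ppb, with an interval of -0.27 to 0.51 in the fit of the compared pools. At 40 ppb a2m2h was not well above background, and its mean was 4.62 against 4.85 in the control pool. The 95% interval in the fit of the compared pools was -0.61 to 0.16, so no lower level was shown. Adjusted p was 0.887 in limma's main fit. The probe sets shared by several a2m2 genes, which are no members, differed by 0.79 ± 0.44 (5 symbols, adjusted p = 0.315) and 0.74 ± 0.48 (7 symbols, adjusted p = 0.392) at 100 minus 0 ppb in limma's fit. With only the control and 100 ppb arrays in that fit their adjusted p was 0.0152 and 0.0178, and their size was under 1. The adjusted p of limma was 0.00731 and 0.00648 with day as a block, but 0.284 and 0.352 with replicate as a block. With trimmed mean scaling it was 0.35 and 0.404, and with a pseudocount of 1 it was 0.251 and 0.245. These probe sets carry member symbols and the control level had a part in the choice of genes, so their values are a description.

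**Figure D4:**
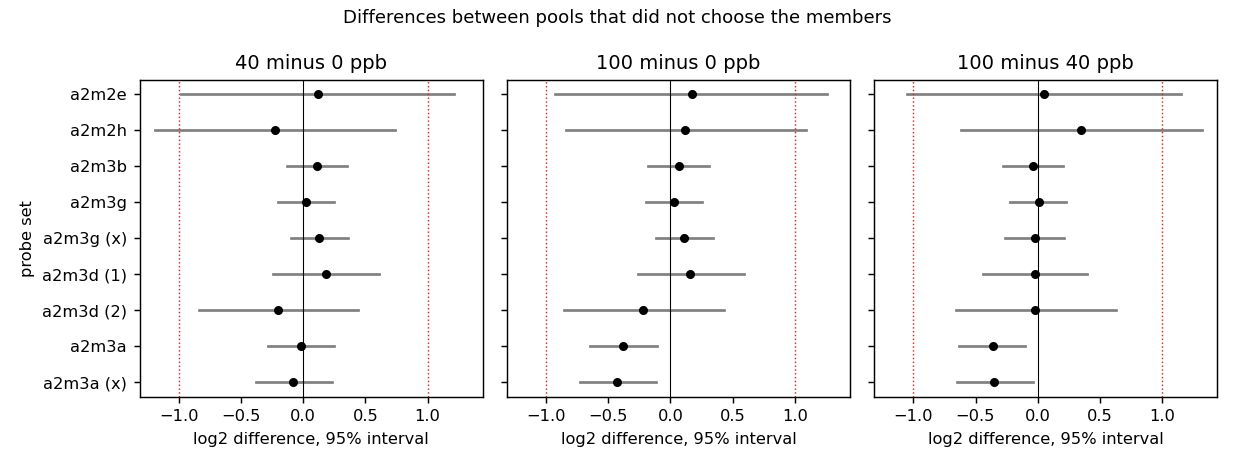
Log2 difference (points) with its 95% interval from limma (bars) for the 9 member probe sets at 40 minus 0, 100 minus 0 and 100 minus 40 ppb; dotted lines mark differences of 1 in size. The a2m3a intervals lie below 0 in both comparisons with 100 ppb and stop short of -1, and those of a2m2e and a2m2h, which carry the gap between the 10 ppb arrays, are the widest; a2m2h was not well above background at 40 ppb.

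Across the 8 arrays, genes with patterns most like the members were sought among 7103 tested probe sets with a single, named symbol. For a2m2h the highest Pearson correlations were with mat1a (r = 0.998), which encodes the methionine adenosyltransferase of liver, c4b, a complement gene (0.997), the fibrinogen gene fga (0.995), mfap4.5 (0.994) and c9, of the terminal complement complex (0.994). For a2m2e they were with serping1, which encodes the C1 inhibitor (0.985), tcn2, of cobalamin transport (0.985), fkbp3 (0.982), faxdc2 (0.980) and itih3b.2, of the inter-alpha-trypsin inhibitor family (0.979). The 8 arrays share 4 pools, and in all 10 of these genes replicate 1 at 10 ppb was highest and replicate 2 next. The 10 ppb arrays had a part in the choice of a2m2e and a2m2h and also set r. The filter used the mean of all 8 arrays, so a candidate dim elsewhere could pass it through its 10 ppb arrays. The ranking and the kinds of gene in it are therefore a description, from which nothing is read.

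For a2m3d the closest were genes that read lower on both 10 ppb arrays than on the others, by little in some. The 10 ppb arrays had a part in the choice of a2m3d and also set r, which was above 0.9 for 21 candidates with each probe set. Nothing is therefore read from this ranking. a2m3d (2) correlated most with the methyltransferase gene prmt6 (r = 0.979), the splicing factor gene rbm39a (0.958), boc (0.944), the meiotic synaptonemal complex gene syce2 (0.936) and kif4, a kinesin (0.934). a2m3d (1) correlated most with anxa5b, an annexin (0.966), syce2 (0.955), prmt6 (0.954), dynlt2b (0.95) and rpap1 (0.937). These genes moved over narrower ranges: prmt6 spanned 0.33 and syce2 0.75, against 1.78 for a2m3d (2) and 1.35 for a2m3d (1).

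Other genes of the family and its partners were counted from lists, with 1 probe set per gene (the brightest). The filter used the mean of all 8 arrays, so a list gene could pass it through its 10 ppb arrays. Genes dim elsewhere and not high at 10 ppb were left out, as were some that were higher at 10 ppb, c3a.6 and serpinc1 among them. Nothing is therefore read from the list counts at 10 minus 0 ppb. Among relatives with the thioester fold 2 were tested, c3a.1 and c4b, and neither was called at 40 or 100 ppb. At 10 minus 0 ppb they differed by 3.84 and 2.63, with replicate 1 above replicate 2 (10.10 and 7.79 for c3a.1). c3a.1 also stood in the liver list. The complement genes c3a.6 and c4 fell under the filter. c3a.6 read 4.91 and 4.74 on the control arrays and 7.52 and 5.80 on those of 10 ppb. c4 read 4.66 and 4.71 on the control arrays and 4.69 on both of 10 ppb. For clearance, 3 genes were tested and none called: the receptor gene lrp1aa differed by -0.15 ± 0.20 at 100 minus 0 ppb (limma, adjusted p = 0.697), and the others were its chaperone lrpap1 and hspa5. lrp1ab and lrp1bb were below background on all 8 arrays.

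Of 14 other protease inhibitor genes tested, 1 was lower at 100 minus 0 ppb and none was called at 40 minus 0 or 100 minus 40 ppb. It was tfpia (6.20 and 6.12 on the control arrays, 4.78 and 4.59 on those of 100 ppb), which encodes an inhibitor of the tissue factor pathway of coagulation and was not well above background on either array of 100 ppb, so that it was at least 2.61-fold lower there (limma, adjusted p = 0.0039). The list's medians were 0.04, 0.03 and 0.10 in the comparisons 40 minus 0, 100 minus 0 and 100 minus 40 ppb. Among all tested probe sets the medians were 0.01, 0.00 and 0.00, and 0.344%, 1.25% and 0.43% were called. At 10 minus 0 ppb 7 of the 14 were higher by at least 1 and none was lower, with a median of 1.0. Over all tested probe sets the shares were 0.989% higher and 0.495% lower. Among the 7 were serpina1l, ambp and fetub, which also stand in the liver list, and serping1. The listed inhibitor cst3, lower at 10, 40 and 100 ppb than in the control pool, fell under the filter. So did others, among them serpinc1 and serpinf2a, which were higher on both 10 ppb arrays than on both control arrays. The tissue inhibitors timp2a, spint1a and spint2 differed by -0.42, -0.17 and -0.02 at 10 minus 0 ppb, and spint1b by 0.61. spint1b read 7.51 and 7.35 on the control arrays and 8.02 and 8.06 on those of 10 ppb. At 100 minus 0 ppb spint1b differed by 0.69 ± 0.15 (limma, adjusted p = 0.029), a size under 1, and was not called.

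Of 18 proteases of the kinds that alpha-2-macroglobulins catch, 1 was called at 40 minus 0 ppb and 2 at 100 minus 0 ppb, all lower. Calls made up 0.344% and 1.25% of the 9301 tested probe sets in these comparisons. Most of those calls were lower too, 28 of 32 and 88 of 116. ctsl.1, of the cathepsin L family, read 7.27 and 6.86 on the control arrays, 4.33 and 4.69 on those of 10 ppb, 5.28 and 5.12 on those of 40 ppb, and 5.00 and 4.95 on those of 100 ppb. It differed by -1.87 ± 0.19 and -2.09 ± 0.19 (limma, adjusted p = 0.00211 and 0.000294), and ctsk, cathepsin K, by -1.40 ± 0.23 at 100 ppb (adjusted p = 0.00796). The collagenase gene mmp13a differed by -1.28 ± 0.36 at 100 minus 0 ppb and by -1.73 ± 0.36 at 100 minus 40 ppb (limma, adjusted p = 0.0652 and 0.0562), and neither passed. The list's medians were 0.18, -0.55 and -0.33 in the order given above. At 10 minus 0 ppb 3 of the 18 were higher by at least 1, plg (plasminogen, 2.95), ctrl (1.27) and prss1 (1.03), the latter pair pancreatic proteases. ctsl.1 was lower (-2.56), and the median was 0.13. Over all tested probe sets the shares were 0.989% higher and 0.495% lower.

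Of 16 listed genes of interleukin-6 and STAT3 signalling, 9 had a probe set of their own on the array, and all 9 were tested. The cytokine and receptor genes il6, il6r, il6st, il1b and tnfa were not among them. Calls made up 0.344% of all tested probe sets at 40 minus 0 ppb and 1.25% at 100 minus 0 ppb. The transcription factor gene cebpa was lower at both doses, with differences of -1.06 ± 0.20 at 40 ppb and -1.37 ± 0.20 at 100 ppb (limma, adjusted p = 0.0464 and 0.00374). It read 6.53 and 6.23 on the control arrays, 5.46 and 5.79 on those of 10 ppb, 5.30 and 5.34 on those of 40 ppb, and 5.2 and 4.82 on those of 100 ppb. The other 8, stat3, socs3a and socs3b among them, did not pass. stat3 read 6.20 and 5.84 in the control pool and 6.39 and 6.04 at 10 ppb, where the pools overlapped. None of the 9 differed by 1 or more at 10 minus 0 ppb. The differences ran from -0.76 (cebpa) to 0.91 (cebpd), with a median of -0.05. cebpd read 5.46 and 5.40 on the control arrays and 6.90 and 5.79 on those of 10 ppb, with replicate 1 above replicate 2.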

How the data were processed

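Linear intensity values deposited by the authors were used, 1 for every probe set on each array; they are MAS5 signals per the submitters' processing notes, whose version and scaling target were not given in the sources read. The deposited instrument files (unit: other) hold settings and no expression values, and served only to group arrays by day. After removal of 115 control probe sets from 15617, 15502 remained. Values were log2(intensity + 16), quantile normalized, and tested above the 40th percentile of the mean with limma 3.58.1 in R 4.3.3 (lmFit on 4 group means over 8 arrays, eBayes with trend, Benjamini-Hochberg adjustment over all 9301 tested probe sets; 4 residual degrees of freedom, 10.5 with the prior). The fit was run on simulated data with large implanted differences and independent noise on each array. That run does not bear on day effects, a deviating array or small differences. The number of arrays and pools limits precision.

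Members and gene lists were chosen with earlier results of these data known. All members were named, with list genes that were called, the closest relatives, and the 5 genes most correlated with each member of range at least 1. Replicate numbers stand for shared days, apart from 10 ppb replicate 1: deviations of same-numbered arrays correlated at 0.143 to 0.298 among the 0, 40 and 100 ppb pools, and at 0.0126 to 0.0464 with the 10 ppb pool. Alternatives were other scalings, pseudocounts, filters, blocks and left-out arrays.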

Additional observations from a re-analysis of the deposited data

How the results depend on the processing

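The 27 member differences at 40 minus 0, 100 minus 0 and 100 minus 40 ppb were recomputed under 17 alternatives; all 444 values that could be tested stayed uncalled, and 15 could not be tested because the filter at the 60th percentile or on 6 arrays removed the probe set. The counts of all called probe sets were 32, 116 and 40 in these comparisons and 103 at 10 minus 0 ppb. In the deposited scaling, which moved the median of tested probe sets by 0.13, -0.07, -0.20 and -0.32, they were 4 (1 higher, 3 lower, against 4 and 28), 13 (1 and 12, against 28 and 88), 4 (0 and 4, against 15 and 25) and 64 (45 and 19, against 60 and 43). A filter at the 60th percentile gave 15, 49, 20 and 37. A pseudocount of 1 gave 197 at 100 minus 0 ppb, and the fit of the compared arrays alone gave 55 at 10 minus 0 ppb. Leaving out 1 array gave 7 (without 40 ppb replicate 1) to 42 at 40 minus 0, 69 (without control replicate 2) to 130 at 100 minus 0, 10 (without 40 ppb replicate 2 or 100 ppb replicate 1) to 62 (without 10 ppb replicate 2) at 100 minus 40, and 19 (without control replicate 2) to 192 (without 10 ppb replicate 2) at 10 minus 0 ppb. Further counts over 1.5 times apart were 10, 8 and 12 at 40 minus 0 ppb without control replicate 1, control replicate 2 and 40 ppb replicate 2, 74 at 100 minus 0 and 28 at 10 minus 0 ppb without control replicate 1, and 20 and 15 at 100 minus 40 ppb without 40 ppb replicate 1 and 100 ppb replicate 2. The cause was not tested. With the replicate block the counts were 29, 126, 40 and 109, and it changed no member call; it took the adjusted p of the _x_at probe set of a2m3a at 100 minus 0 ppb to 0.0404. At 10 minus 0 ppb a2m2h ranged from 2.12 (day as a block) to 3.98 (pseudocount of 1), a2m2e from 0.80 (day as a block) to 3.07 (without 10 ppb replicate 2), and a2m3d from -1.80 to -1.15 and from -1.16 to -0.74 in its probe sets. Signal near background limits a2m2e and a2m2h outside the 10 ppb pool.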
